A study of Mus musculus with 6 samples.

Results

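The AP-1, NR4A and other immediate early genes described here are Fos, Fosb, Fosl2, Jun, Junb, Npas4, Arc, Nr4a1, Nr4a2 and Nr4a3. They are the 10 rows with these symbols among the 55341 gene symbols of each count table, and all 10 passed the filter on low counts that left 16729 genes to test. RNA came from mouse cerebellar granule neurons (CGNs) of CD1-IGS pups, isolated over Percoll and grown in culture, where AraC was given to every culture against dividing cells. One group of 3 libraries had the DMSO vehicle, and the other group of 3 had GSK-126, an inhibitor of the H3K27 methyltransferase EZH2, added once on day 3 in vitro. The labels name that day and cerebellar tissue, and per the methods the RNA was taken on a later day in culture. A biological replicate was a culture from the pooled cerebella of litters of both sexes, so no library stands for 1 animal. The comparison asks how transcripts of these genes differed between cultures given the EZH2 inhibitor and cultures given the vehicle.

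Immediate early genes are transcribed within minutes of calcium entry or growth factor signalling, before any protein has to be made. FOS and JUN proteins pair into AP-1, a leucine zipper factor that binds sites such as TGACTCA. The NR4A proteins are orphan nuclear receptors that act without a known ligand, and NPAS4 is a basic helix-loop-helix factor that responds selectively to depolarization. In neurons the program couples synaptic activity to late genes such as neuropeptides and growth factors, whereas fibroblasts and glia use its AP-1 branch in response to serum and injury. The cultures hold several cell types, and in bulk RNA a change in the number of cells of a type and a change in RNA per cell cannot be told apart.

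The promoters of the genes that the results turn on are printed from RefSeq (GRCm38.p6) as the 250 bases before the transcription start, 5′ to 3′ on the strand of the gene. RefSeq promoters were matched by symbol for 9 of the 10 genes, all but Arc. Fos and Junb are shown as the genes called higher in the fit that pairs the replicates, Jun as the third gene whose groups did not overlap, Npas4 as the gene with the widest range, and Nr4a2 as the gene that was lower in each pair. Capitals mark the TGACG core of the cyclic AMP response element (CRE) on either strand, the CRE-like TGACNTCA, and the TATA box TATAAA on either strand.
Fos (chr12:85473640-85473889, plus strand): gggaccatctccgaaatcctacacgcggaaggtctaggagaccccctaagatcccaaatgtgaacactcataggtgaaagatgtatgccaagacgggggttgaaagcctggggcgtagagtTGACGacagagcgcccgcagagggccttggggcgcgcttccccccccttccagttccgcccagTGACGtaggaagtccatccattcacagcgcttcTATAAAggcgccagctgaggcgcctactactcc
Junb (chr8:84978749-84978998, minus strand): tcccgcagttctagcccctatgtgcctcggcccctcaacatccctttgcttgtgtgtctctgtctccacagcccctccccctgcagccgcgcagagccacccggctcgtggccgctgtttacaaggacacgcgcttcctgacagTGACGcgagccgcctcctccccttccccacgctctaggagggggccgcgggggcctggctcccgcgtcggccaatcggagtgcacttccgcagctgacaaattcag
Jun (chr4:95052223-95052472, minus strand): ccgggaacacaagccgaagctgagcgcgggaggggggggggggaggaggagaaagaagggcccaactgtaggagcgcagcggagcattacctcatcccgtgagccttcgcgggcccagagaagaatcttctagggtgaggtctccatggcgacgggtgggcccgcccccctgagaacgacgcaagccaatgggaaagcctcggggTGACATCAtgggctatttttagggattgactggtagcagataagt
Npas4 (chr19:4989972-4990221, minus strand): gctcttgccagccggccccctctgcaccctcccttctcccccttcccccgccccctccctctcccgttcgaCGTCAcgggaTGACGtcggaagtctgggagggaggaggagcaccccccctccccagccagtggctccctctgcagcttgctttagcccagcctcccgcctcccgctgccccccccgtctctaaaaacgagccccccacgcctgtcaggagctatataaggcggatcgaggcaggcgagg
Nr4a2 (chr2:57124004-57124253, minus strand): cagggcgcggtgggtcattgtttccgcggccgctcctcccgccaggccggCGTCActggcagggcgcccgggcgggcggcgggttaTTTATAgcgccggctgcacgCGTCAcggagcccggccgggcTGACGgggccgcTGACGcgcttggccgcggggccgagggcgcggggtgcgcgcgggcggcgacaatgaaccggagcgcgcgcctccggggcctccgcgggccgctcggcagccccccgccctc
The TGACG core was present in 7 of the 9 promoters and in 17.8% of 32851 RefSeq promoters searched over the same 250 bases. Fos held it at 129 to 125 and at 66 to 62 bases before its start, and its TATA box lay 33 to 28 bases before the start. Nr4a1, Nr4a2 and Nr4a3 each held the core 4 times, and Jun and Fosl2 did not hold it. The CRE-like TGACNTCA, which includes the full CRE and overlaps the core where the N is G, was found in Jun alone, 45 to 38 bases before its start, and in 7.49% of all promoters. The full CRE TGACGTCA (1.55% of all promoters), the AP-1 site TGACTCA (4.46%), the NR4A site AAAGGTCA (1.34%) and the CArG box that serum response factor binds (1.47%) were in none of the 9 windows. TATAAA was in Fos and Nr4a2, and in 12.4% of all promoters. In Nr4a2 it lay on the opposite strand, 164 to 159 bases before the start. Other spellings of the TATA box were not searched for. These matches are letters in a window and were not tested for binding. Windows so short leave out distal elements, which were not analysed here.

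Library depth was 7407189 to 13092763 counts on genes, of which the 10 genes together had 2701 to 4871. A single count was worth 0.0758 to 0.134 CPM, the unit used below, in which counts are scaled to a common library total with TMM factors. The main principal component of the libraries, with 46.4% of the variance, set replicate 2 of both groups apart, so results that rest on that pair are also given without it. Libraries with the same replicate number deviated together from their group means, and the fit that holds the number as a block is therefore set beside the fit without it. The markers of granule neurons were present in every library, with a summed level of 3522 to 5771 CPM for 11 genes with DMSO and 2811 to 4337 CPM with GSK-126. None of the 8 markers of fibroblasts and mural cells was at 0 either, and their sum was 7497 to 10084 CPM under DMSO and 8583 to 10941 CPM with GSK-126.

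Per length of exon, the order of the genes with DMSO began with the JUN and FOS partners of AP-1. Jun had 48.8 ± 10.1 CPM per kb (SD, n = 3), Junb 19.2 ± 3.40, Fos 9.79 ± 1.49 and Fosl2 6.23 ± 1.16, and no library of one of these overlapped the next in the order. Nr4a2 followed with 3.03 ± 1.56 CPM per kb (SD, n = 3), and its highest library, 4.82, lay just under the lowest of Fosl2, 4.98. Below it the neighbours Nr4a2, Nr4a1, Npas4, Nr4a3 and Arc overlapped one by one, down to a mean of 0.675 CPM per kb for Arc. Fosb closed the order at 0.151 ± 0.0527 CPM per kb (SD, n = 3). With GSK-126 the ranges of Junb, 22.7 to 27.9, and Fos, 12.5 to 24.8 CPM per kb, came to overlap. These levels used the union of the GENCODE M21 exons, 2301 bp for Junb to 9680 bp for Fosl2.

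**Figure D1:**
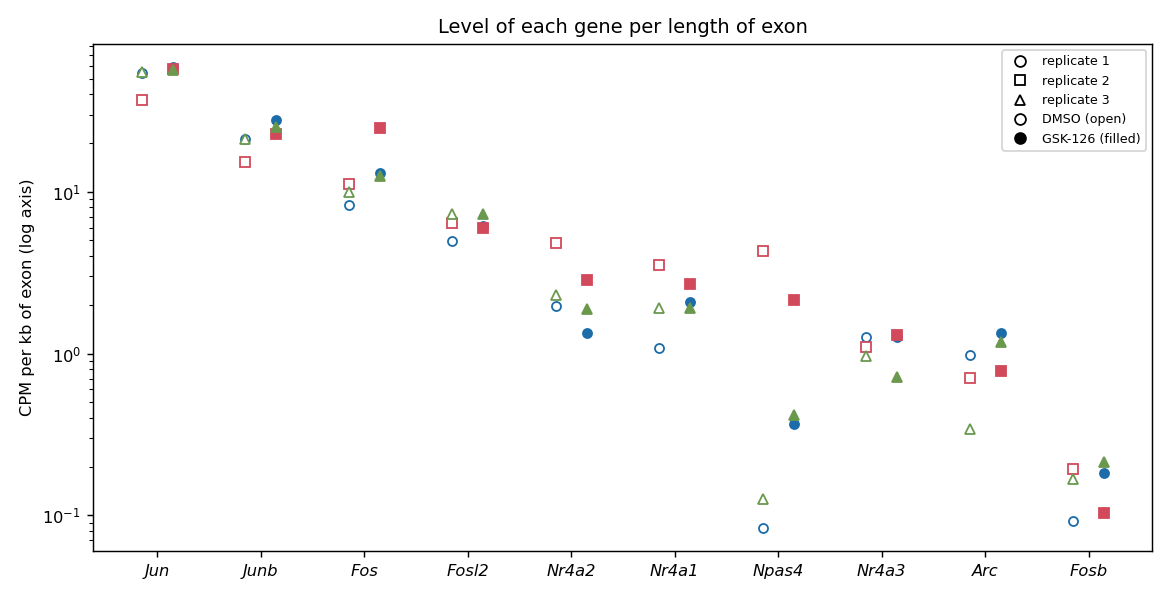
Level of each gene in CPM per kb of exon on a log axis, with 3 DMSO libraries (open) and 3 GSK-126 libraries (filled), and 1 symbol shape for each replicate number. Jun lies highest in all 6 libraries, Fosb lowest in 4 of them, and Npas4 spreads most, with replicate 2 far above the other libraries of both groups.

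GSK-126 against DMSO gave higher Fos and Junb in each pair of cultures, with no overlap of the groups, and no other member was called in either direction in the full set of libraries. That call was made with the replicate block and was not made without it. In the fit without the block, edgeR's quasi-likelihood test called 0 of the 10 genes higher and 0 lower at a Benjamini-Hochberg adjusted p under 0.05, against 0% and 0% of all tested genes. At an unadjusted p under 0.05, 2 of the 10 were higher (1.77% of all genes) and 0 lower (2.21% of all genes). With the block, 2 of the 10 were called higher, against 3.35% of all genes, and 0 lower, against 5.09%. DESeq2 with the block called 1 of the 6 members to which it gave an adjusted p, against 2.85% of all genes with one. Without pair 2, the block fit called 0 of the 10 higher, against 2% of all genes. The median log2 fold change of the 10 genes was 0.082 without the block, beside -0.0071 for all tested genes, and 0.14 with it, beside -0.0056.

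Fos, an inducible partner in AP-1, had 19.4, 26.4 and 23.3 CPM with DMSO in replicates 1, 2 and 3, and 30.7, 58.4 and 29.4 CPM with GSK-126. All GSK-126 libraries were above all DMSO libraries, and replicate 2 with GSK-126 stood well above the others. The means were 23.0 ± 3.51 and 39.5 ± 16.4 CPM (SD, n = 3). Within pairs, Fos was 1.58-, 2.21- and 1.26-fold higher. On the log2 scale the fold change was 0.78 (standard error 0.28, adjusted p = 0.953 in edgeR, 0.0258 unadjusted) without the block and 0.73 (standard error 0.14, adjusted p = 0.00222 in edgeR) with it. DESeq2 with the block gave an adjusted p of 0.00506. Leaving out pair 2 lowered the log2 fold change to 0.50 and ended the call, with an adjusted p of 0.0748 in edgeR with the block, whereas it held without pair 1 (0.000108) and without pair 3 (2.2e-06).

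Junb, a JUN family partner of FOS in AP-1, had 48.8, 35.1 and 48.6 CPM under DMSO and 64.2, 52.1 and 57.6 CPM with GSK-126. The lowest GSK-126 library lay above the highest DMSO library, and replicate 2 was the lowest of both groups. Junb was 1.32-, 1.48- and 1.18-fold higher within the pairs. On the log2 scale this came to 0.39 (standard error 0.17, adjusted p = 0.953 in edgeR) without the block and 0.40 (standard error 0.10, adjusted p = 0.0165 in edgeR) with it. This call was lost with DESeq2 and the block (adjusted p = 0.0550), without pair 1 (0.0610 in edgeR with the block) and without pair 2 (0.116). Of the exons of Junb, 173 bp are shared with Prdx2 on the opposite strand, and since the strand setting of the counting was not given, reads there cannot be assigned to one of them with certainty.

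Jun, the partner common to most AP-1 dimers, had 172, 118 and 176 CPM under DMSO and 188, 182 and 179 CPM with GSK-126. The groups did not overlap, but the gap rested on replicate 2, in which the DMSO library was far below the others and the fold was 1.54, beside 1.09 and 1.02 in pairs 1 and 3. The fitted log2 fold change came to 0.24 (standard error 0.17, adjusted p = 0.953 in edgeR) without the block and 0.26 (standard error 0.094, adjusted p = 0.106) with it. Jun was called in the block fits without pair 1 (adjusted p = 0.0431 in edgeR) and without pair 3 (0.0123), and it had an adjusted p of 0.633 without pair 2, with a log2 fold change of 0.081. Jun shares 232 bp of its single exon with Junos, a transcript of the opposite strand.

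Fosl2 and Fosb, the other FOS partners, had mixed directions. Fosl2 had 48.2, 62.1 and 70.5 CPM under DMSO and 59.0, 57.9 and 70.1 CPM with GSK-126. It was 1.22-fold higher in pair 1 and 0.933 and 0.995 times the DMSO level in pairs 2 and 3, and its log2 fold change with the block came to 0.060 (standard error 0.099, adjusted p = 0.788 in edgeR). Fosb rested on few reads, with 5 to 15 counts per library. Its levels were 0.577, 1.21 and 1.04 CPM under DMSO and 1.14, 0.646 and 1.34 CPM with GSK-126. The pairs went both ways, and the block log2 fold change of 0.14 had a standard error of 0.57 (adjusted p = 0.919 in edgeR).

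**Figure D2:**
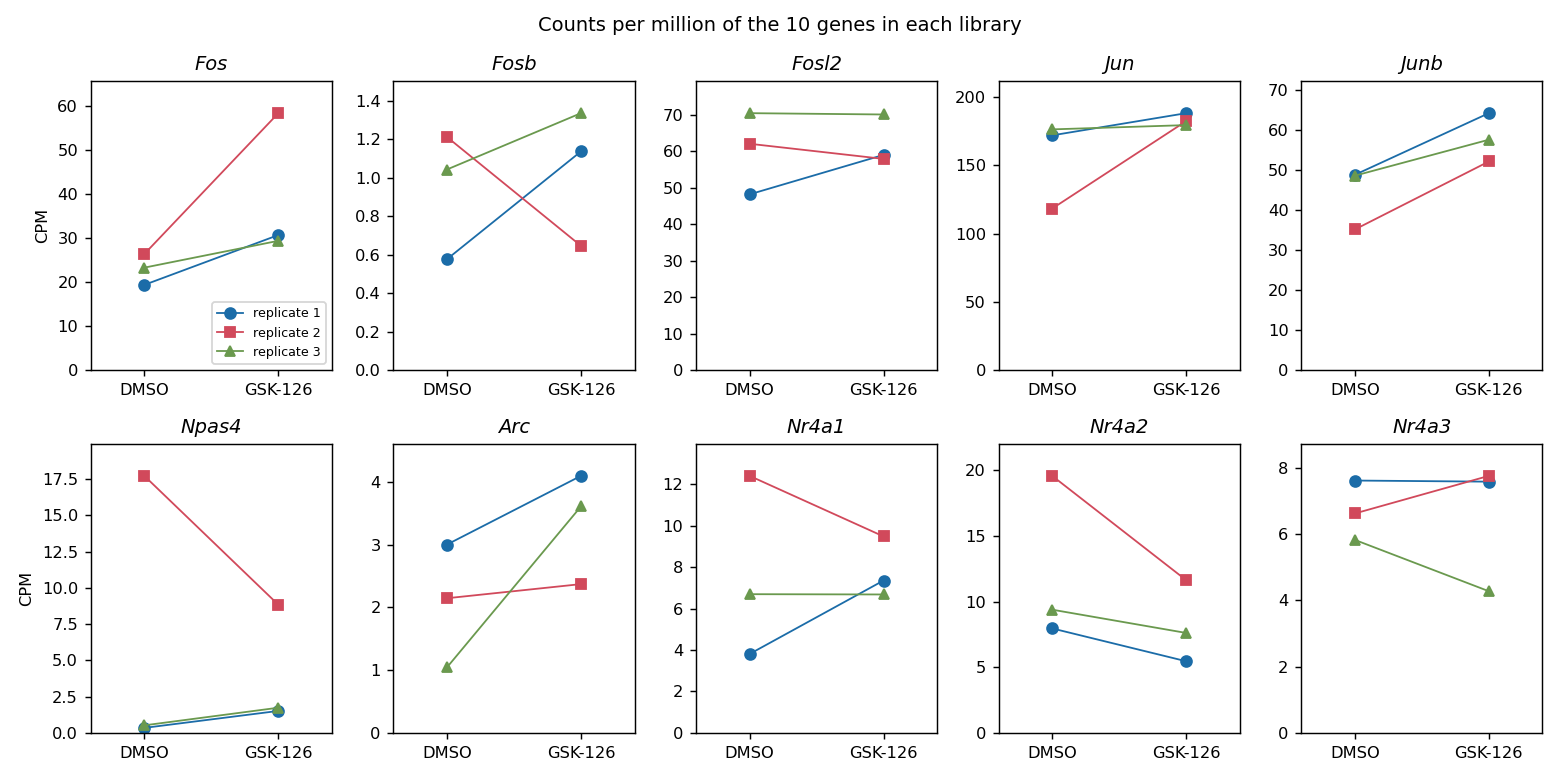
CPM of each of the 10 genes in every library, on linear axes that start at 0, with a line joining the DMSO and GSK-126 libraries of each replicate number. The lines rise in all 3 pairs for Fos, Jun, Junb and Arc, fall in all 3 for Nr4a2, and differ in direction between pairs for Fosb, Fosl2, Npas4, Nr4a1 and Nr4a3.

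Of the other activity-regulated genes, Npas4 followed the replicate number. It had 0.346, 17.7 and 0.521 CPM with DMSO, from 3, 190 and 6 counts, and 1.52, 8.83 and 1.74 CPM with GSK-126, from 20, 82 and 13 counts. Both libraries of replicate 2 lay above the other 4 libraries. In pairs 1 and 3 the level was 4.38- and 3.33-fold higher with GSK-126, and in pair 2 it was 0.499 times the DMSO level. The fitted log2 fold change was thus -0.63 (standard error 1.31, adjusted p = 0.962 in edgeR) without the block and 0.046 (standard error 0.43, adjusted p = 0.968) with it. Without pair 2 the block fit gave 1.88 with an adjusted p of 0.161.

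Arc, which encodes a dendritic protein that takes part in trafficking AMPA receptors, had 3.00, 2.14 and 1.04 CPM under DMSO and 4.09, 2.37 and 3.61 CPM with GSK-126. It was higher in each pair, by 1.36-, 1.10- and 3.46-fold, but the groups overlapped. Its log2 fold change of 0.73 (standard error 0.39) with the block was as large as that of Fos and had an adjusted p of 0.296 in edgeR, on 12 to 54 counts per library.

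The 3 nuclear receptors did not move in one direction. Nr4a2, which dopamine neurons need for their identity, had 7.96, 19.6 and 9.39 CPM under DMSO and 5.46, 11.6 and 7.61 CPM with GSK-126. It was lower with GSK-126 in each pair, at 0.686, 0.594 and 0.811 times the DMSO level, while the groups overlapped because both libraries of replicate 2 were the highest of their group. For Nr4a2 the fitted log2 fold change came to -0.59 (standard error 0.41, adjusted p = 0.953 in edgeR) without the block and -0.55 (standard error 0.19, adjusted p = 0.0899) with it. Nr4a1, induced in many cell types by calcium and cyclic AMP, had 3.81, 12.4 and 6.69 CPM under DMSO and 7.35, 9.48 and 6.68 CPM with GSK-126. It was higher in pair 1, lower in pair 2 and level in pair 3, with a log2 fold change of 0.13 (standard error 0.25, adjusted p = 0.816 in edgeR) with the block. Nr4a3 had 7.61, 6.62 and 5.82 CPM under DMSO and 7.58, 7.75 and 4.27 CPM with GSK-126, and its log2 fold change with the block came to -0.052 (standard error 0.23, adjusted p = 0.927 in edgeR).

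**Figure D3:**
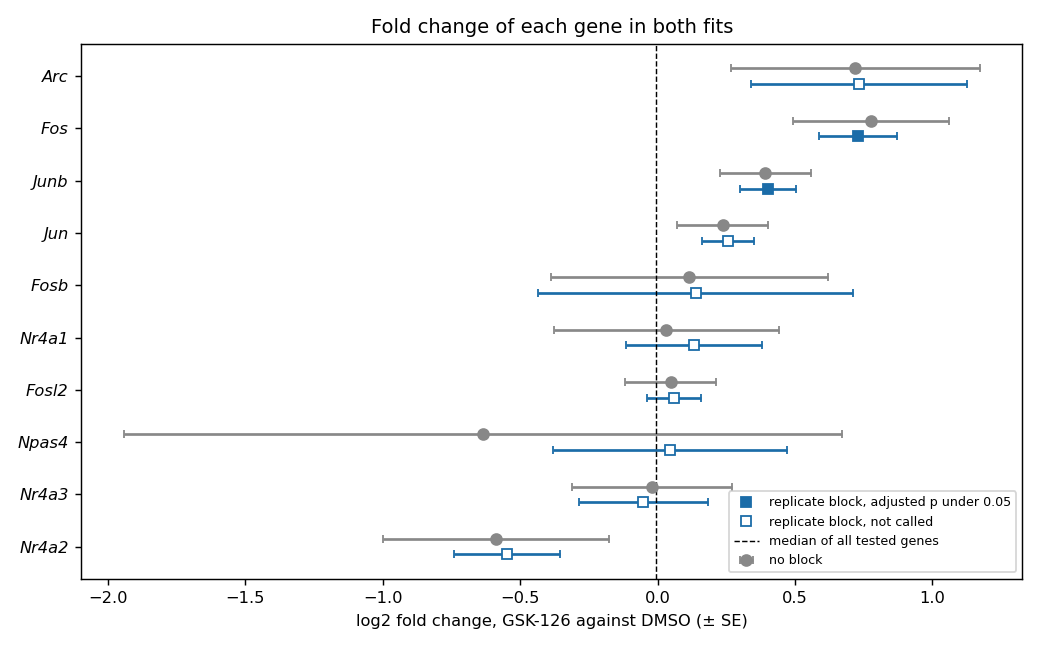
Log2 fold change of GSK-126 against DMSO with its standard error for each gene, without the block (grey circles) and with the replicate block (blue squares, filled at an adjusted p under 0.05), beside the median of all tested genes without the block. Fos at 0.73 and Junb at 0.40 are the filled squares, and Npas4 has the widest bar, at -0.63 with a standard error of 1.31 without the block.

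Counted over the pairs, 4 of the 10 genes were higher with GSK-126 in every pair, namely Fos, Jun, Junb and Arc, against 19.5% of all tested genes. Nr4a2 was the 1 gene lower in every pair, against 22.7%. The groups did not overlap, with higher values under GSK-126, for 3 of the 10, against 4.72% of all genes. The summed level of the 10 genes was 302 to 343 CPM under DMSO and 362 to 391 CPM with GSK-126. These shares are descriptions, since the genes were chosen with earlier results of these data known.

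The replicate numbers separated the members as well. In a test of the replicate number within the block fit, added after the data were seen, 5 of the 10 genes differed between numbers at an adjusted p under 0.05, against 31.4% of all genes. They were Npas4 (adjusted p = 3.7e-06 in edgeR), Nr4a2 (0.000977), Fos (0.00492), Nr4a1 (0.0348) and Fosl2 (0.0482). Fos, Npas4, Nr4a1 and Nr4a2 were all highest in replicate 2 of each group, and Jun and Junb were lowest in replicate 2 with DMSO. In the same replicate the granule neuron markers summed to their highest level of each group, 5771 and 4337 CPM, and the 7 astroglia markers to their lowest, 2338 CPM under DMSO and 2228 CPM with GSK-126. The astroglia sum was 4031 and 7240 CPM in the other DMSO libraries and 3999 and 7599 CPM in the other GSK-126 libraries, and its part in these levels was not tested.

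Over the 6 libraries, with groups and replicate numbers mixed, some members varied together and others against each other. Pearson's r of log2 CPM was 0.92 between Jun and Junb, 0.91 between Npas4 and Nr4a1 and 0.74 between Npas4 and Nr4a2. Between Junb and Nr4a2 it was -0.92 and between Jun and Nr4a2 -0.85. Fos had r of 0.24 with Jun, 0.24 with Junb, 0.60 with Npas4, 0.55 with Nr4a1 and 0.14 with Nr4a2. Among the 15383 or 15384 genes with a mean log2 CPM over 1, the pattern most like that of Fos was that of Enpp5 (r = 0.994), followed by Fgfbp3 and Stx11 (0.983 each). Junb was most like Akt1s1, Wdr38 and S100a6 (0.997, 0.994 and 0.992) and Jun like Bag5, Copz2 and Rpl15 (0.997, 0.996 and 0.992). Fosb was most like Gm340, Med21 and Gm28151 (0.997, 0.985 and 0.976). For Npas4 these were Faf1, Atp9b and Rtn4 (0.995, 0.986 and 0.982) and for Arc Pigc, Eif3e and Mapk12 (0.984, 0.979 and 0.977). Among the nuclear receptors, Nr4a1 was most like Col4a3bp, Gm13331 and Rpusd1 (0.994, 0.988 and 0.984) and Nr4a3 like Polg, Mrpl37 and Ppp2cb (0.999, 0.996 and 0.995). The 6 libraries are shared by all genes, and with so many candidates high values were at hand for each member, so these are descriptions with no test.

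**Figure D4:**
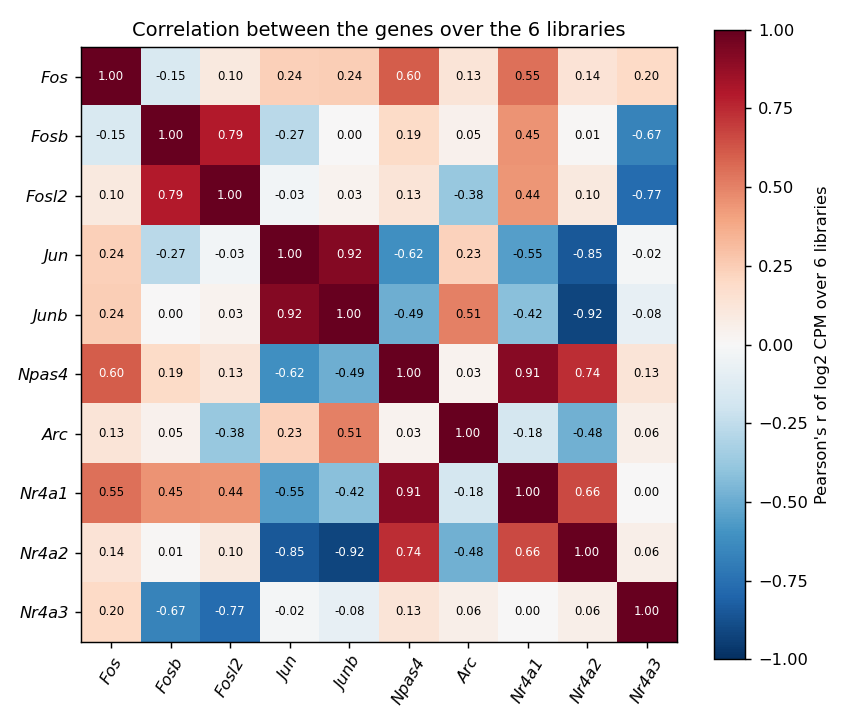
Pearson's r of log2 CPM between each pair of the 10 genes over the 6 libraries, from -1 (blue) to 1 (red). Jun and Junb (0.92) form one red block, Npas4, Nr4a1 and Nr4a2 (0.66 to 0.91) another, and both sets are blue against each other.

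The other genes of the program were counted in lists written with the study's results known. Over all tested genes the block fit called 3.35% higher and 5.09% lower, and without pair 2 it called 2% higher. Without the block, edgeR called 0 genes in each of the 14 lists, and DESeq2 called 1, Scg2, with an adjusted p of 0.0169. Of 11 tested genes for other AP-1 and related leucine zipper factors, 2 were called higher with the block and 0 lower. Both were small MAF proteins, which lack an activation domain. Maff had 5.88, 10.2 and 7.13 CPM under DMSO and 13.4, 11.4 and 16.6 CPM with GSK-126 (block log2 fold change 0.84, adjusted p = 0.0165 in edgeR), and Mafk had a block log2 fold change of 0.67 (adjusted p = 0.0317). The groups of neither overlapped, and DESeq2 with the block called neither (adjusted p = 0.0682 and 0.156). The block fit without pair 2 called Maff and not Mafk. Jund is listed at 0 in all 6 libraries, and 877 of its 1668 exon bases are shared with Gm11175 on the opposite strand. Whether that 0 reflects absent expression or the counting was not tested.

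Of 32 tested other immediate early genes, 5 were called higher with the block and 2 lower. Ccn1, a matrix protein induced by serum, had 67.9, 120 and 105 CPM under DMSO and 149, 188 and 139 CPM with GSK-126, with no overlap and a block log2 fold change of 0.72 (standard error 0.10, adjusted p = 0.000107 in edgeR). Egr4, a zinc finger factor of the EGR family, moved the other way. It had 7.84, 30.2 and 8.60 CPM under DMSO and 1.67, 7.0 and 0.801 CPM with GSK-126, and its block log2 fold change came to -2.37 (standard error 0.24, adjusted p = 2.9e-06 in edgeR). Every GSK-126 library of Egr4 was below every DMSO library, and replicate 2 was the highest of both groups, as it was for Npas4. Dusp5, a phosphatase of nuclear ERK, fell with a block log2 fold change of -0.57 (adjusted p = 7.2e-05 in edgeR), and its groups overlapped. The other 4 called higher, Ccn2, Klf2, Klf4 and Klf6, were named after their values were seen and had block log2 fold changes of 0.55, 0.66, 0.63 and 0.32. DESeq2 with the block called neither Klf2 (adjusted p = 0.161) nor Klf4 (0.111). Without pair 2 the block fit called 3 higher, namely Ccn1, Ccn2 and Plk2, and the same 2 lower. Egr2 and Arf4 are listed at 0 in all 6 libraries, and whether this reflects absent expression or the counting was not tested.

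Of 13 tested delayed activity-regulated genes, 2 were called higher with the block. Scg2, the precursor of the neuropeptide secretoneurin, had 79.1, 80.2 and 78.3 CPM under DMSO and 119, 124 and 120 CPM with GSK-126, so that the groups lay far apart with little spread in either, and its block log2 fold change came to 0.61 (standard error 0.080, adjusted p = 4.4e-05 in edgeR). Inhba, a subunit of activin, had a block log2 fold change of 0.76 (adjusted p = 0.00494 in edgeR), and its groups overlapped. Of 12 genes that textbooks give as AP-1 targets, 6 were called higher with the block and 0 lower. Plau, the urokinase protease, had 78.9, 52.2 and 109 CPM under DMSO and 155, 94.1 and 168 CPM with GSK-126 (block log2 fold change 0.81, adjusted p = 3.6e-06 in edgeR), and its receptor Plaur had a block log2 fold change of 0.97 (adjusted p = 0.000376) with no overlap of the groups. Spp1, or osteopontin, had 0.45 (adjusted p = 0.000166 in edgeR), and its groups overlapped, as did those of Plau. Without pair 2 the block fit called the same 2 delayed genes and the same 6 AP-1 targets. Fibroblasts, microglia and astrocytes also express such genes.

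Of 33 kinases and factors that act upstream of immediate early genes, 0 were called higher and 8 lower with the block, and DESeq2 with the block called 7 lower. The smallest p values were those of Ppp3ca, a catalytic subunit of calcineurin (block log2 fold change -0.62, adjusted p = 9.2e-06 in edgeR), Camk4, a calcium-dependent kinase of CREB (-0.67, 1.5e-05), and Rps6ka1, a kinase downstream of ERK (-0.55, 8.1e-05). Camk4 had 99.0, 197 and 132 CPM under DMSO and 65.4, 116 and 84.8 CPM with GSK-126. The groups overlapped for Camk4 and Rps6ka1 and did not for Ppp3ca, and replicate 2 was highest in each group for all 3. With pair 2 left out, the block fit called 4 of the 33 lower, the 3 named and Mapk9. Over all genes, 496 of the 16839 tested in that fit were called lower. Of the 5 tested partners of NR4A and NPAS4, which are RXR receptors and ARNT proteins, 0 were called.

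**Figure D5:**
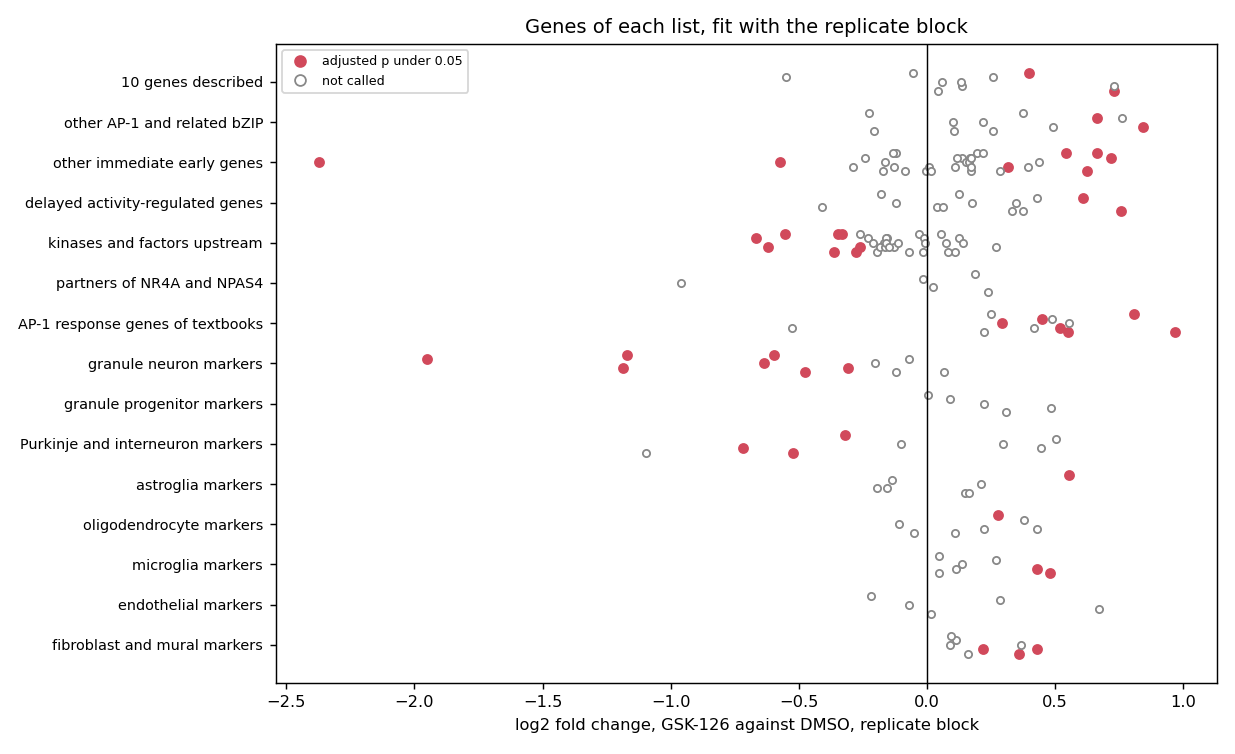
Block log2 fold change of every tested gene of the 10 described (top line) and of the 14 other lists, filled where the adjusted p was under 0.05. Called genes lie to the right for the AP-1 response genes (6 of 12) and to the left for the upstream kinases (8 of 33) and granule neuron markers (7 of 11).

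Markers of the cell types in the culture were called in part of the lists, and only with the block. Of 11 granule neuron markers, 7 were called lower with the block and 0 higher. The smallest p values were those of Slc17a7, the vesicular glutamate transporter (block log2 fold change -1.95, adjusted p = 1.3e-10 in edgeR), the transcription factor Etv1 (-1.17, 1.5e-07) and Gabra6, a GABA receptor subunit of mature granule neurons (-1.19, 1.5e-07). Of 8 markers of Purkinje cells and interneurons, 3 were called lower, namely Slc32a1, Gad1 and Gad2, and 0 higher. All 8 together summed to 211 to 244 CPM under DMSO and 162 to 199 CPM with GSK-126. DESeq2 with the block did not call Gad2 (adjusted p = 0.136), and it called 6 of the granule neuron markers. In the glial lists the called genes were higher. They were S100b among 7 astroglia markers, Mbp among 7 of oligodendrocytes, and C1qa and C1qb among 7 of microglia. All 7 microglia markers together summed to 188 to 408 CPM under DMSO and 268 to 502 CPM with GSK-126. The sum of the oligodendrocyte markers was 422 to 738 CPM under DMSO and 492 to 757 CPM with GSK-126. By log2 fold change without the block, 4 astroglia markers were higher and 3 lower. The same count was 5 higher and 2 lower for oligodendrocytes, and 7 higher and 0 lower for microglia. In every pair, 4 astroglia markers were higher, against 19.5% of all tested genes, and 3 lower, against 22.7%. Of 8 markers of fibroblasts and mural cells, 3 were called higher, Acta2 (0.43), Pdgfrb (0.36) and Col1a2 (0.22), and 0 lower. Neither the 5 tested endothelial markers nor the 5 tested markers of granule progenitors held a called gene. The sum of all 6 listed endothelial markers was 71.7 to 89.6 CPM under DMSO and 54.8 to 91.3 CPM with GSK-126. For all 7 listed progenitor markers it was 305 to 415 and 314 to 462 CPM. When pair 2 was left out, the block fit called 6 granule neuron markers and 2 of Purkinje cells and interneurons lower, and S100b, C1qa, Acta2, Pdgfrb and the progenitor marker Ccnd1 higher. No marker of these lists was at 0 in all libraries, and their part in the levels of Fos, Junb and the other genes was not tested.

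By position in GENCODE M21 (GRCm38), 6 of the genes lie on chromosomes that carry no other member. Fos (ENSMUSG00000021250.13) spans chr12:85473890-85477273 and Junb (ENSMUSG00000052837.6) chr8:84974484-84978718. Jun (ENSMUSG00000052684.4) spans chr4:95049034-95052222 in 1 exon, on the same chromosome as Nr4a3 (ENSMUSG00000028341.9, chr4:48045153-48086447). Nr4a2 (ENSMUSG00000026826.13) spans chr2:57106830-57124003 and Npas4 (ENSMUSG00000045903.9) chr19:4984355-4990316. Arc (ENSMUSG00000022602.14, chr15:74669083-74672570) and Nr4a1 (ENSMUSG00000023034.7, chr15:101254269-101274795) share a chromosome. Fosb (ENSMUSG00000003545.3) spans chr7:19302696-19310051 and Fosl2 (ENSMUSG00000029135.10) chr5:32135801-32157842. Apart from Jun and Junb, none of the 10 shares exon bases with another gene.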

How the data were processed

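RNA of CGN cultures was compared between 3 libraries with DMSO and 3 with GSK-126. Per the methods and the submitters' processing notes, the authors trimmed reads with Trimmomatic 0.38, aligned them to mm10 with STAR 2.7.2b and counted reads on exons with HTSeq, and they deposited raw counts per gene. The methods name a Gencode annotation of GRCm38.p4, and its release number and the strand setting are not given in the sources used here. All 55341 symbols were those of GENCODE M21, which gave coordinates and exon lengths. The 5 lines that name no gene held 58.7% to 60.7% of listed reads and were left out. The line for reads on no annotated exon alone held 45.3% to 46.6%.

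Counts were tested in R 4.3.3 with edgeR 4.0.16 (TMM factors, filterByExpr, quasi-likelihood test, Benjamini-Hochberg adjustment over 16729 genes, threshold 0.05), without a block. Standard errors were derived from that test, as the absolute log2 fold change divided by the square root of its F statistic. Alternatives were DESeq2 1.42.0, other scalings and filters, the replicate block and leaving out libraries or pairs. Deviations of libraries with the same number had correlations of 0.56, 0.63 and 0.49 across genes, and at most 0.0064 otherwise, so the numbers pair the libraries. No 2 libraries agreed within sampling noise. The fits were tested on simulated data.

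The members and lists were chosen with earlier results of these data known. All members are named, as are up to 3 genes per list with the smallest block p among calls, and the 3 genes most like a member, which are not reported here for Fosl2 and Nr4a2.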

Additional observations from a re-analysis of the deposited data

How the results depend on the processing

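No member changed sides of the threshold without the replicate block. Calls over all genes were 19 higher and 2 lower with DESeq2 and 9 and 1 with no filter, against 0 and 0, which were also the lowest and highest counts when each library was left out. With the replicate block they were 561 higher and 851 lower, with DESeq2 and the block 351 and 600, with upper-quartile factors and the block 727 and 698, and with total counts and the block 714 and 707, so the split between higher and lower depended on the scaling. Leaving out pair 1, 2 or 3 with the block gave 417 and 671, 337 and 496, and 558 and 719. Members called higher numbered 2 with the block under TMM, upper-quartile and total-count scaling and without pair 1, 1 with DESeq2, 3 without pair 3 and 0 without pair 2. The 2 genes without pair 1 were Fos and Jun, and the 3 without pair 3 were Fos, Jun and Junb. With all libraries kept, adding the block in edgeR changed the calls of Fos and Junb among the members and no other.

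Directions that turned were those of members with small or mixed changes. Nr4a3 was at 0.011 with upper-quartile factors, 0.012 with total counts and 0.11 with the block without pair 3. Npas4 was at 0.046 with the block, 0.66 with DESeq2 and the block, 0.085 with upper-quartile factors and the block, 0.11 with total counts and the block and 1.88 with the block without pair 2. The block without pair 1 gave -0.22 for Fosb, -0.039 for Fosl2, -0.20 for Nr4a1 and -0.051 for the median of the members. Without each library in turn and no block, log2 fold changes ran from -0.10 to 0.38 for Fosb, -0.074 to 0.18 for Fosl2, -0.26 to 0.57 for Nr4a1, -0.14 to 0.20 for Nr4a3 and -1.92 to 3.15 for Npas4, the highest without DMSO replicate 2. In the same fits the range was 0.40 to 0.95 for Fos, 0.26 to 0.48 for Junb, 0.077 to 0.34 for Jun, 0.39 to 1.10 for Arc and -0.91 to -0.081 for Nr4a2. Fos, Junb, Jun, Arc and Nr4a2 kept their direction in all 18 alternatives. The causes were not tested. Fosb and Npas4 were not fitted where 10 counts were asked of every library. The fewest reads lie behind Fosb, with 5 to 15 counts per library, Arc, with 12 to 54, and Npas4, with 3 to 20 outside replicate 2.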
